A study of Mus musculus with 6 samples.

Results

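The suppressors of cytokine signalling (SOCS) were followed here together with the receptor and the transcription factor of the growth hormone pathway, in bulk RNA sequencing of interscapular brown adipose tissue (iBAT), taken as a whole depot from newborn mice. The genes were chosen by symbol: the SOCS genes Socs1 to Socs7 and Cish, with the growth hormone receptor gene Ghr and the STAT5 gene Stat5b. These are 10 of the 19241 genes in the deposited table, and all 10 reached the mean of 0.5 FPKM (fragments per kilobase of transcript, scaled by the mapped fragments of the library) required for testing, as did 13331 genes in all. The list was drawn up with results of these data known, so the calls given for its genes describe them and are not independent evidence.

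The study compared 3 libraries from newborn mice with the genotype Fstl1-floxed, called WT, with 3 from newborn mice with the genotype Myf5-Fstl1 KO, called KO. In KO mice Fstl1, the gene of the secreted glycoprotein follistatin-like 1, was deleted in cells that had expressed Myf5, a lineage that forms skeletal muscle and much of the interscapular brown fat. Cells of other lineages in the depot therefore kept the gene. The labels give no strain, sex, Cre line or number of animals behind a library, so p-values measure the spread between these libraries.

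Growth hormone acts through GHR, a cytokine receptor that carries the kinase JAK2. JAK2 phosphorylates STAT5A and STAT5B, which move to the nucleus and bind DNA at the palindromic motif TTCNNNGAA, and Cish and Socs2 are textbook targets of this step. SOCS proteins close the loop: each has an SH2 domain that finds phosphorylated receptors or kinases and a SOCS box that recruits a ubiquitin ligase. CISH and SOCS2 act mainly on growth hormone and STAT5 signals, SOCS1 on interferon signals, SOCS3 on signals of the interleukin-6 type, and SOCS4 to SOCS7 are less tied to cytokine receptors. In mice, loss of Socs2 causes gigantism.

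The motif TTCNNNGAA, which reads the same on both strands, was searched in the promoter windows that RefSeq gives for these genes on GRCm38.p6 (250 bases before to 50 after a transcript start). Of the 10 genes, 6 were matched to a window, with 8 windows in all, and Socs2, Socs5, Socs6 and Socs7 were not. The motif was found in 2 of the 8, those of Cish and Socs3, against 8.30% of all 32851 windows. The Cish window held 2 copies, which 0.457% of all windows did (2 or more copies). The stretches with the motif are shown because these letters are what STAT5 binds, with the motif in capitals. Cish is on the plus strand at chr9:107296559-107296688, from base −100 to base 30 relative to the start, and its copies begin at bases 1 and 12. Socs3 is on the minus strand at chr11:117969487-117969616, from base −250 to base −121, and its copy begins at base −154. A match is a description of the letters, and binding was not measured.
Cish: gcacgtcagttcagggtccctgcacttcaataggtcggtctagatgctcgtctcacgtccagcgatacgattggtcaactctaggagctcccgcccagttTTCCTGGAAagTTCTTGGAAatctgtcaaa
Socs3: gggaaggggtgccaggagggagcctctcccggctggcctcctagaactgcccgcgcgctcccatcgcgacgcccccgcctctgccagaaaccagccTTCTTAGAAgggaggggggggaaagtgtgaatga

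Fstl1, the targeted gene, was at 54.4 to 130.04 FPKM in WT and at 7.93 to 13.1 FPKM in KO (log2 fold change −2.79 by limma, SE 0.33, adjusted p 0.00979). Xist, expressed from an inactive X chromosome, was at 44.8 to 85.5 FPKM in WT and at 0.05 to 0.92 FPKM in KO, while the Y-linked Eif2s3y was at 0 to 0.08 FPKM in WT and 83.7 to 99.3 FPKM in KO. Genotype and sex thus cannot be told apart in any comparison here. The brown fat gene Ucp1 was at 4366 to 6255 FPKM in WT and 1695 to 3592 FPKM in KO, so the tissue label matched its defining marker. Summed over marker lists, skeletal muscle genes came to 1560 to 2297 FPKM in WT. In KO replicates 1, 2 and 3 they came to 413, 1715 and 2043 FPKM. By the sign of the log2 fold change 12 of 12 were lower in KO, and 0 were called by limma (1 at an unadjusted p under 0.05). In mean FPKM, Myh3 was higher in KO (16.33 against 13.69 in WT). Erythroid genes came to 2974, 4257 and 11883 FPKM in WT replicates 1, 2 and 3 and to 2640 to 3332 FPKM in KO, with 6 of 9 tested genes lower by sign and 0 called by limma (0 unadjusted). The sums of 12 brown adipocyte genes (22116 to 27933 FPKM in WT, 21428 to 23443 in KO), endothelial genes (546 to 725 and 576 to 632), fibroblast and preadipocyte genes (1418 to 1891 and 1496 to 2574) and Schwann cell genes (73.1 to 77.7 and 59.0 to 84.6) overlapped between the groups. Of the 12 brown adipocyte genes 8 were lower in KO by sign, 5 had an unadjusted p under 0.05, and 2 fell, which were Elovl3, a fatty acid elongase (limma, −2.34, adjusted p 0.0151), and Plin1, a lipid droplet coat protein (−1.36, 0.0267). Ucp1 (limma, −1.08, adjusted p 0.0804) and Prdm16 (−0.87, 0.0520) did not pass, and these 4 genes were lower in every KO library. Of the 4 brown adipocyte genes higher by sign, Ppargc1a had an unadjusted p under 0.05 and did not pass (limma, 0.52, adjusted p 0.251). An unadjusted p under 0.05 was reached by 19.2% of all tested genes. The part of these marker lists in the values of the 10 genes was not tested. Lymphocyte, epidermal and hepatocyte genes each summed to at most 3.42 FPKM in any library. In bulk RNA, fewer cells of a type and less RNA per cell cannot be told apart.

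Of the 10 genes, Socs2 rose in KO and no other gene passed an adjusted p of 0.05. That is 1 called of 10, where 2.21% of all tested genes were called in either direction and 1.21% were called higher in KO. By sign alone 6 were higher and 4 lower, with a median log2 fold change of 0.04, against 0.01 over all tested genes. The libraries of KO and WT did not overlap for 3 of them, Socs2, Socs7 and Stat5b, a share close to the 24.9% of all tested genes without overlap (13.6% higher and 11.4% lower in KO). Unadjusted p-values were under 0.05 for 3, Socs2, Stat5b and Cish, against 19.2% of all tested genes. Stat5b and Cish were lower in KO in their means without passing. The plot of FPKM by library shows these values gene by gene.

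**Figure D1:**
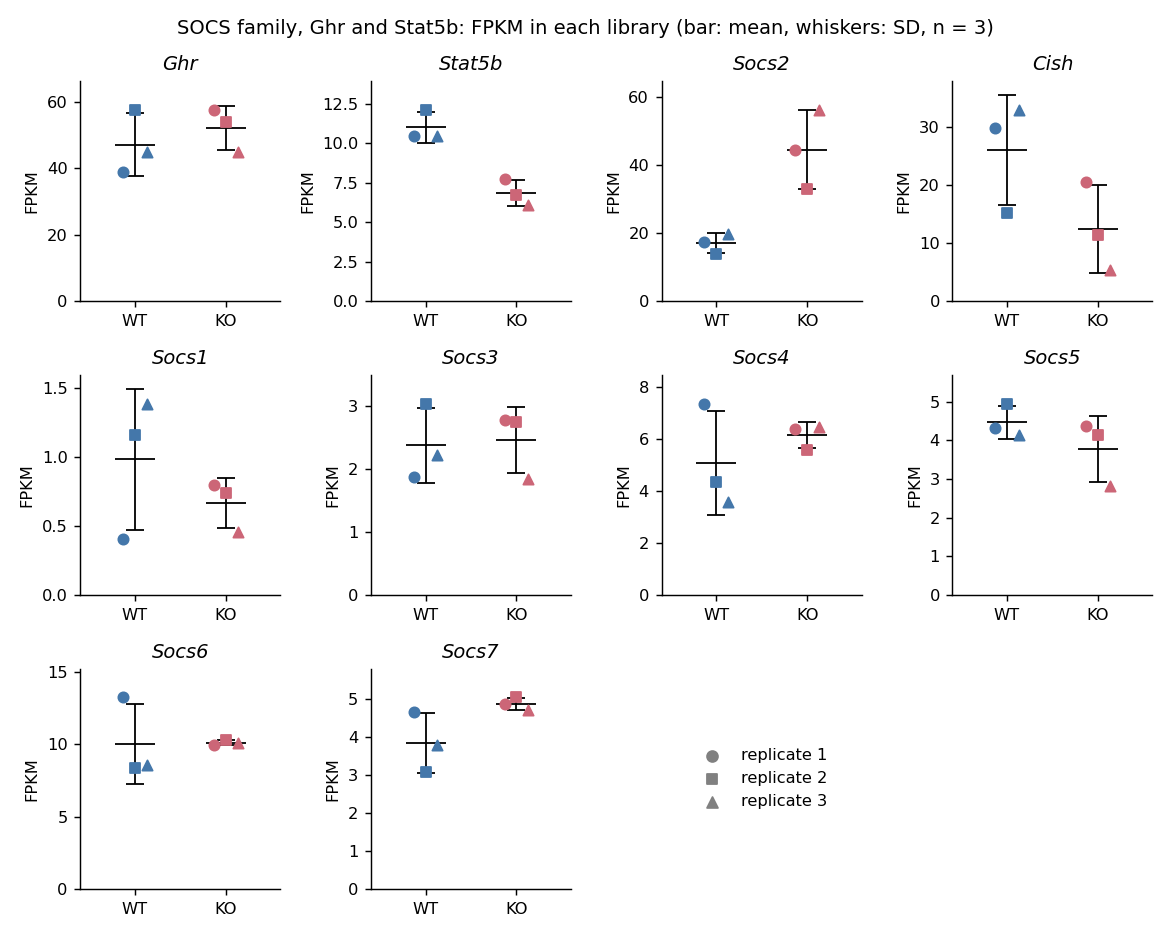
FPKM (y axis, from 0) of each of the 10 genes in the 3 WT and 3 KO libraries; symbols give the replicate number, bars the mean and whiskers the SD (n = 3). Socs2 was above 32 FPKM in every KO library and below 20 FPKM in every WT library, while Cish overlapped between the groups.

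Starting at the receptor, Ghr was the highest of the 10 in both groups. It read 38.99, 57.55 and 44.78 FPKM across WT replicates 1 to 3, against 57.59, 53.86 and 44.94 FPKM across KO replicates 1 to 3. The highest KO library and the highest WT library were almost level, and the groups overlapped. The means were 47.1 ± 9.50 FPKM in WT and 52.1 ± 6.50 FPKM in KO (SD, n = 3), and the log2 fold change of 0.15 had a 95% interval from −0.25 to 0.56 (limma, adjusted p 0.683). Ghr lies at chr15:3317755-3583352 and has 3 RefSeq transcripts in the table. One value stands for all 3 transcripts, so isoforms of the receptor could not be separated.

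Stat5b encodes the STAT5 form best known for growth hormone signals. It measured 10.46, 12.13 and 10.46 FPKM across the WT libraries against 7.73, 6.71 and 6.09 FPKM across the KO libraries, so every KO library was below every WT library. KO held 62.1% of the WT mean (11.02 ± 0.964 against 6.84 ± 0.828 FPKM, SD, n = 3). The log2 fold change of −0.62 (SE 0.15) missed the threshold (limma, adjusted p 0.0674). Its neighbour and close relative Stat5a, which is outside the list of 10, fell and did pass (log2 fold change −1.20 by limma, SE 0.25, adjusted p 0.0475). Stat5a measured 12.8, 17.95 and 15.17 FPKM across the WT libraries against 8.99, 6.02 and 3.94 FPKM across the KO libraries, again without overlap. Leaving out any single library except KO replicate 1 ended the Stat5a call, with adjusted p from 0.0560 to 0.192 (limma). It also ended with a common sum (0.0611) and with no low-value filter (0.122).

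The Stat5b and Stat5a genes lie side by side at chr11:100780731-100859004 and chr11:100859351-100885169. Their transcripts share stretches: of all 50-base words in the protein-coding Stat5b transcripts of GENCODE vM21, 11.1% also occur in another gene, and for Stat5a the share is 14.7%. How the authors' counting divided reads from such stretches is not given in the sources used here, so the split between the pair is uncertain. Where each shared read was counted for either gene alone, their summed FPKM depends on that split only through the lengths of the transcripts. Shared reads that were dropped or counted for both genes would change the sum as well. The sum was 23.3, 30.1 and 25.6 FPKM in WT and 16.7, 12.7 and 10.03 FPKM in KO. The means were 26.3 ± 3.46 against 13.2 ± 3.37 FPKM (SD, n = 3). Stat5a made up 55.0% to 59.7% of the pair in WT and 39.3% to 53.8% in KO. The sums and shares are descriptions of the same contrast.

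Socs2 encodes the SOCS protein that restrains growth hormone signalling at the receptor. It measured 17.4, 13.85 and 19.67 FPKM across the WT libraries against 44.41, 32.84 and 56.16 FPKM across the KO libraries. The lowest KO library was well above the highest WT library. The means were 17.0 ± 2.93 and 44.5 ± 11.7 FPKM (SD, n = 3), a ratio of 2.62, with a log2 fold change of 1.32 (SE 0.21) whose 95% interval ran from 0.84 to 1.80 (limma, adjusted p 0.0266). It was higher in 3 of 3 KO libraries than in any WT library. The call ended when WT replicate 2, WT replicate 3, KO replicate 1 or KO replicate 3 was left out (limma, adjusted p 0.119, 0.0815, 0.0661 and 0.0561), with log2 fold changes of 1.19, 1.43, 1.30 and 1.14. It also ended without the filter on low values (0.0803). In the transcripts of Socs2, at chr10:95383903-95417321, 14.9% of the 50-base words also occur in another gene, chiefly in the pseudogene Gm9847. KO replicate 1, the library low in skeletal muscle genes, lay between the other 2 KO libraries in Socs2. The part of the muscle genes in the Socs2 values was not tested.

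Cish, the founding member of the family, encodes a protein that binds activated cytokine receptors. It measured 29.95, 15.26 and 33.03 FPKM across the WT libraries against 20.56, 11.42 and 5.4 FPKM across the KO libraries. KO replicate 1 was above WT replicate 2, so the groups overlapped, and KO replicate 3 was the lowest library of all. KO held 47.8% of the WT mean (26.1 ± 9.50 against 12.5 ± 7.63 FPKM, SD, n = 3). The log2 fold change of −1.11 (SE 0.43, 95% interval −2.07 to −0.14) did not pass (limma, adjusted p 0.204). Its size rested on single libraries: it was −0.66 without KO replicate 3 (limma, adjusted p 0.421). With array weights it was −0.28. WT replicate 3, the highest library for Cish, was also the highest for the erythroid markers, with 11883 FPKM; their part in the Cish values was not tested.

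In the same 6 libraries Socs2 and Cish changed rank. Cish was above Socs2 in all 3 WT libraries and Socs2 was above Cish in all 3 KO libraries. The ratio of Socs2 to Cish FPKM was 0.581, 0.908 and 0.596 in WT and 2.16, 2.88 and 10.4 in KO. Scaling a whole library by a single factor cannot alter it, whereas quantile normalization can. KO replicate 3 had both the highest Socs2 and the lowest Cish. This ratio was singled out after its values were seen and is given with no test.

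**Figure D2:**
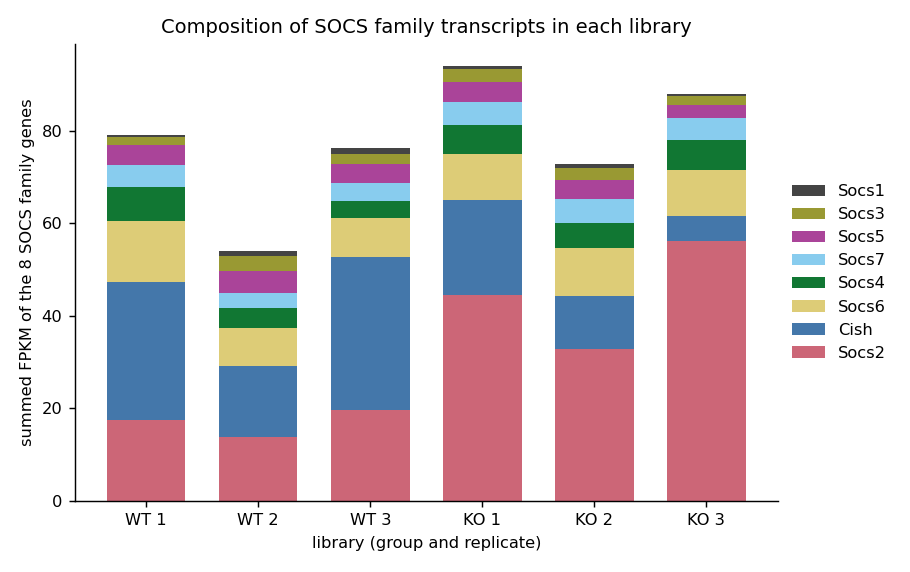
FPKM of the 8 SOCS family genes stacked for each library (x axis: group and replicate; y axis: summed FPKM). Socs2 made up 21.97% to 25.7% of the sum in WT and 45.1% to 63.8% in KO, and Cish 28.2% to 43.2% in WT and 6.14% to 21.9% in KO.

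The summed FPKM of the 8 SOCS genes was 54.0 to 79.2 in WT and 72.8 to 94.1 in KO, with overlap. Within that sum Socs2 made up 24.5% ± 2.15 in WT and 52.0% ± 10.3 in KO (SD, n = 3), and Cish 36.4% ± 7.59 and 14.6% ± 7.92. The other 6 genes together came to 26.8 ± 4.41 FPKM in WT and 28.0 ± 1.45 FPKM in KO. In the stacked bars of the family the Socs2 segment is the taller of the pair in every KO library and the Cish segment in every WT library.

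Socs1 and Socs3 are the members best known as inducible brakes on interferon and interleukin-6 signals. Socs3 measured 1.88, 3.04 and 2.22 FPKM across the WT libraries against 2.78, 2.75 and 1.85 FPKM across the KO libraries, with a log2 fold change of 0.04 and a 95% interval from −0.39 to 0.46 (limma, adjusted p 0.941). Socs1 was the lowest of the 10, at 0.41, 1.16 and 1.39 FPKM across the WT libraries against 0.8, 0.74 and 0.46 FPKM across the KO libraries (log2 fold change −0.22 by limma, 95% interval −0.71 to 0.26, adjusted p 0.611). The groups overlapped in both genes, and WT replicate 1 was the lowest library for Socs1. At the estimated depth a 1 kb transcript covered by 3 reads would read 0.21 FPKM. The protein-coding Socs1 transcripts are 2785 to 2908 bases long in GENCODE vM21, so a given FPKM stands for more reads than at 1 kb. The reads behind the Socs1 values were not counted.

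Socs4 and Socs5 are close relatives linked to signalling of the epidermal growth factor receptor. Socs4 measured 7.36, 4.33 and 3.58 FPKM across the WT libraries against 6.38, 5.58 and 6.47 FPKM across the KO libraries (log2 fold change 0.28 by limma, 95% interval −0.23 to 0.78, adjusted p 0.534). Socs5 measured 4.31, 4.95 and 4.14 FPKM across the WT libraries against 4.37, 4.15 and 2.81 FPKM across the KO libraries (limma, −0.21, −0.60 to 0.19, adjusted p 0.552). Each overlapped between the groups, Socs4 through its high value in WT replicate 1.

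Socs6 and Socs7 encode family members that have been tied to insulin receptor signalling. Socs6 measured 13.26, 8.36 and 8.57 FPKM across the WT libraries against 9.96, 10.32 and 10.09 FPKM across the KO libraries (log2 fold change 0.04 by limma, 95% interval −0.38 to 0.45, adjusted p 0.941). Socs7 measured 4.64, 3.06 and 3.79 FPKM across the WT libraries against 4.85, 5.03 and 4.71 FPKM across the KO libraries. All 3 KO libraries were above the WT libraries, by as little as 0.07 FPKM at the nearest pair, and Socs7 did not pass (limma, 0.29, −0.07 to 0.66, adjusted p 0.362). The 2 genes were tight within KO, with coefficients of variation of 1.80% for Socs6 and 3.30% for Socs7, against 27.5% and 20.7% in WT. In Socs6 transcripts 11.1% of the 50-base words also occur in another gene, chiefly in the pseudogene Gm9449.

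**Figure D3:**
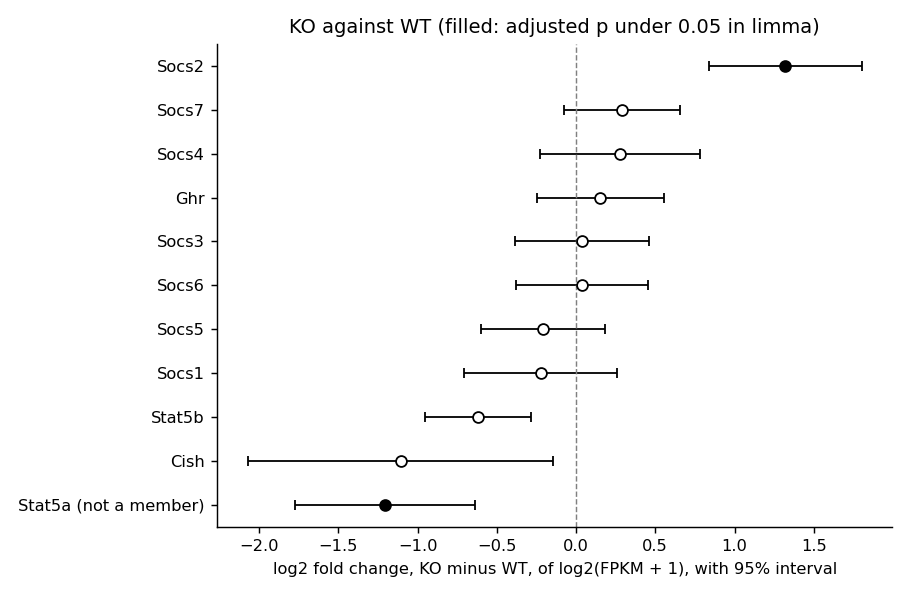
Log2 fold change of KO minus WT on the log2(FPKM + 1) scale (x axis) with 95% intervals from limma for the 10 genes and for Stat5a. Filled points passed an adjusted p of 0.05: Socs2 at 1.32 and Stat5a at −1.20; the intervals of Cish and Stat5b lie below 0 without passing.

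Levels per kilobase put the genes in nearly the same order in both groups. In WT the order was Ghr, Cish, Socs2, Stat5b, Socs6, Socs4, Socs5, Socs7, Socs3 and Socs1. In KO it was Ghr, Socs2, Cish, Socs6, Stat5b, Socs4, Socs7, Socs5, Socs3 and Socs1. Neighbours whose library ranges overlapped in WT were Cish with Socs2, Stat5b with Socs6, Socs4 with Socs5, and Socs5 with Socs7. In KO these were Ghr with Socs2, Cish with Socs6, and Stat5b with Socs4. The whole span ran from 0.987 ± 0.512 FPKM for Socs1 to 47.1 ± 9.50 FPKM for Ghr in WT. By its mean over the 6 libraries Ghr stood above 88.2% of tested genes, Socs2 above 81.2%, Cish above 71.6% and Socs1 above 6.18%.

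The genes whose pattern over the 6 libraries was most like that of Socs2 were sought among 12134 other tested genes whose mean reached 1 FPKM, by Pearson correlation of log2(FPKM + 1). The 5 closest were Dopey2 (r = 0.995), Ube2h (0.993), Bmf (0.992), 4931406P16Rik (0.988) and Atp9b (0.985). Dopey2 and Atp9b changed little, with log2 fold changes of 0.27 and 0.28, and did not pass (limma, adjusted p 0.329 and 0.282). Ube2h, Bmf and 4931406P16Rik rose and passed (limma, adjusted p 0.0267, 0.0427 and 0.0216). Ube2h, which encodes a ubiquitin-conjugating enzyme, measured 28.6, 28.3 and 33.9 FPKM across the WT libraries against 68.2, 52.8 and 83.3 FPKM across the KO libraries. Bmf, a BH3-only death gene of the BCL2 family, measured 3.99, 3.28 and 3.83 FPKM across the WT libraries against 7.19, 6.17 and 9.14 FPKM across the KO libraries. Like Socs2, both were lowest in replicate 2 of each group and highest in KO replicate 3. Both genes were picked for their likeness to Socs2 in these same libraries, so the shared order and rise are no separate evidence. Over 6 libraries in 2 groups, 102 of the 12134 genes had r over 0.95.

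The rest of the pathway was read from 9 lists of 126 different genes, of which 100 were tested, and 7 passed, 3 higher and 4 lower in KO. That is 7.0% against 2.21% of all tested genes. An unadjusted p under 0.05 was reached by 29 of the 100, against 19.2% of all tested genes. The lists were written with earlier results of these data known. None of the ligands growth hormone, prolactin and erythropoietin was among the genes analysed. Of 7 tested cytokine ligand genes Il15 rose and Lep fell. Il15, whose product supports lymphocytes, went from 2.33 ± 0.447 to 5.31 ± 1.27 FPKM (SD, n = 3; limma, log2 fold change 0.91, adjusted p 0.0461). Lep, the gene of the adipocyte hormone leptin, measured 0.91, 2.22 and 0.98 FPKM across the WT libraries against 0.11, 0.13 and 0.06 FPKM across the KO libraries (limma, −1.07, adjusted p 0.0423). The KO values of Lep rest on very few reads. The Il15 call ended whichever library was left out (limma, adjusted p 0.0648 to 0.142), and the Lep call whichever was left out except WT replicate 1 (0.0949 to 0.118). The Il15 call also ended under each of the 4 other scalings (0.0527 to 0.0659) and without the filter on low values (0.122), and the Lep call with a common sum (0.0506) and without the filter (0.0924). With pseudocounts of 0.1 and 0.01 Lep was at −2.79 and −3.58. Ctf1 and Clcf1, the next by p-value, had log2 fold changes of 0.16 and 0.12 (limma, adjusted p 0.730 and 0.717).

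Among 23 tested genes of other cytokine receptors, 16 were higher and 7 lower in KO by sign, with a median log2 fold change of 0.35. An unadjusted p under 0.05 was reached by 9 of the 23, and 11 were higher in every KO library than in any WT library (13.6% of all tested genes). Osmr and Ifngr1 rose and Cntfr fell. Ifngr1, a chain of the interferon gamma receptor, measured 73.3, 73.0 and 66.8 FPKM across the WT libraries against 150.2, 133.6 and 167.3 FPKM across the KO libraries (log2 fold change 1.07 by limma, SE 0.14, adjusted p 0.0149). Osmr, the oncostatin M receptor, went from 7.33 ± 0.176 to 15.9 ± 1.26 FPKM (SD, n = 3; limma, 1.01, SE 0.14, adjusted p 0.0151). Cntfr, the receptor chain for ciliary neurotrophic factor, went from 42.9 ± 5.87 to 13.5 ± 4.71 FPKM (limma, −1.65, SE 0.24, adjusted p 0.0199). Each of these 3 was without overlap between the groups. All 3 calls ended without WT replicate 2 (limma, adjusted p 0.0740 for Ifngr1, 0.0742 for Osmr and 0.0950 for Cntfr) and without WT replicate 3 (0.0677, 0.0658 and 0.0888). Without KO replicate 2 those of Osmr (0.0516) and Cntfr (0.0584) ended as well. The Cntfr call also ended without the filter on low values (limma, adjusted p 0.078). Csf2rb (0.68, adjusted p 0.0565) and Il6ra (1.10, 0.0626) did not pass in limma. Of 12 macrophage marker genes 11 were higher in KO by sign and 0 passed in limma (4 at an unadjusted p under 0.05), none was at 0 in every library, and their sum was 143 to 211 FPKM in WT and 198 to 275 FPKM in KO. Their part in the receptor values was not tested.

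JAK kinases and STAT factors carry the signal from receptor to gene. Of the 4 JAK genes 0 passed in limma, with 0 at an unadjusted p under 0.05. Jak2, the kinase of the growth hormone receptor, measured 11, 12.57 and 9.51 FPKM across the WT libraries against 10.81, 15.7 and 10.29 FPKM across the KO libraries (log2 fold change 0.13 by limma, adjusted p 0.765), and Jak1 was at 0.17 (0.595). Of 4 STAT genes tested here outside the list of 10, Stat5a passed. Stat3 measured 19.83, 18.96 and 25.16 FPKM across the WT libraries against 40.51, 32.11 and 32.16 FPKM across the KO libraries, higher in every KO library, and did not pass (limma, 0.69, adjusted p 0.0674). Stat2 had a log2 fold change of 0.33 (limma, adjusted p 0.301).

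Targets read as follows. Of 9 tested genes known as growth hormone or STAT5 targets, 0 passed in limma (2 at an unadjusted p under 0.05), with a median log2 fold change of −0.07. Igf1, the main growth factor induced by growth hormone, measured 18.25, 24.42 and 20.5 FPKM across the WT libraries against 21.73, 20.88 and 17.25 FPKM across the KO libraries (limma, −0.07, adjusted p 0.856). Igfals, at 0.5, 1.79 and 1.71 FPKM across the WT libraries against 0.39, 0.55 and 0.13 FPKM across the KO libraries (limma, −0.74, adjusted p 0.162), and Fgf21, at 0.08, 4.14 and 6.45 FPKM across the WT libraries against 0.24, 0.15 and 0 FPKM across the KO libraries (−1.62, 0.186), were the lowest in p. Both overlapped through WT replicate 1. Without that library both passed (limma, −1.03, adjusted p 0.0418 for Igfals and −2.46, 0.0114 for Fgf21), and with array weights too (0.00581 and 0.00481). Of all 13331 tested genes, 370 were called without that library and 3181 with array weights, against 295 in the main fit. With pseudocounts of 0.1 and 0.01 the log2 fold change of Fgf21 was −3.07 and −4.19 and that of Igfals −1.60 and −1.89, without passing in limma. Igf1 was named here after its values were seen.

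Of 15 genes known as STAT3 targets, 8 were higher and 7 lower by sign, 8 had an unadjusted p under 0.05, and Fos fell. Fos, which encodes an immediate-early transcription factor and passed in all 18 alternatives, measured 9.04, 10.41 and 9.37 FPKM across the WT libraries against 2.71, 3.82 and 2.84 FPKM across the KO libraries (log2 fold change −1.37 by limma, SE 0.16, adjusted p 0.00841). The next 2, Cebpb (−0.95, adjusted p 0.0674) and Cebpd (0.82, 0.118), had opposite signs and did not pass in limma.

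**Figure D4:**
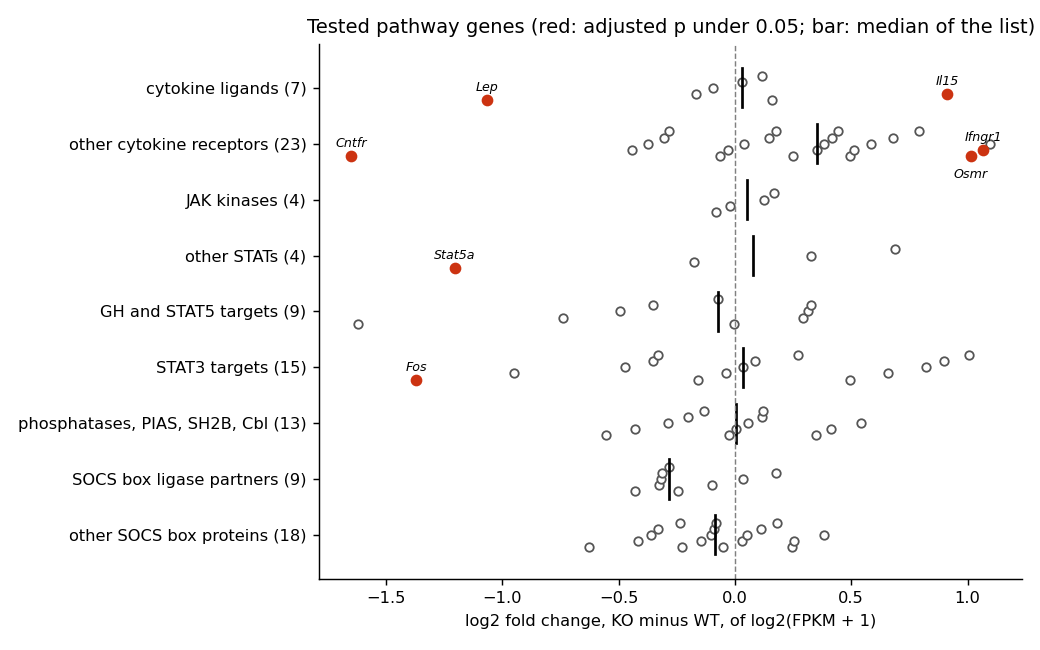
Log2 fold change of KO minus WT (x axis) of each tested gene in the 9 pathway lists, with the number tested in brackets; red points passed an adjusted p of 0.05 and vertical bars are list medians. The median is 0.35 for other cytokine receptors and −0.28 for SOCS box ligase partners, and the 7 red points lie in 4 of the lists.

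SOCS boxes work by docking on a ubiquitin ligase built from elongins, CUL5 and a RING protein. Of 9 tested genes of this machinery 7 were lower by sign, with a median of −0.28, and 0 passed in limma (2 at an unadjusted p under 0.05). Rnf7, the RING partner of CUL5, went from 106.7 ± 7.61 to 79.4 ± 11.7 FPKM (SD, n = 3) with no overlap (limma, −0.43, adjusted p 0.179), and Ube2f had a log2 fold change of −0.32 (0.243). Of 18 tested genes of other SOCS box proteins 0 passed in limma (2 unadjusted), with Spsb3 (−0.63, adjusted p 0.0626) and Asb3 (0.38, 0.193) lowest in p. Among 13 other regulators of the pathway, which are tyrosine phosphatases, PIAS proteins, SH2B adaptors and Cbl and do not all act in one direction, 0 passed in limma (3 unadjusted) and the median was 0.01. Sh2b1, an adaptor that enhances JAK2, was at −0.43 (adjusted p 0.168) and Ptprc, the leukocyte phosphatase CD45, at 0.41 (0.1998).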

How the data were processed

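Total RNA of the whole interscapular brown fat depot was sequenced in 3 WT and 3 KO libraries, grouped by their titles. The authors deposited FPKM values with 2 decimals, per the file headers. HISAT2 2.0.4, Bowtie2 2.2.5, DESeq2 (without a version) and the build mm10 are named in the submitters' processing notes. The quantifier, strand handling and filters are not given in the sources used here. All 6 value columns were used.

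FPKM were transformed as log2(FPKM + 1), so fold changes of low genes are understated. Genes averaging 0.5 FPKM or more over the 6 libraries were tested for KO against WT with limma 3.58.1 in R 4.3.3 (eBayes with an intensity trend, no covariates), with Benjamini-Hochberg adjustment over all 13331 genes and a threshold of 0.05. The fit was tested on simulated data. The members, the 9 pathway lists and the 10 marker lists were chosen with earlier results of these data known; 1 further pathway list and 1 gene of another list are not reported here. Named pathway genes are those past the threshold and, beyond them, the 2 with the smallest p of each list.

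Steps between low FPKM of short genes with 1 transcript put the depth at 13820000 to 15160000 reads per library: 74.5% to 78.5% of such values lay within 0.2 of a whole read, against 44.9% to 45.9% with lengths shuffled. As whole reads were not recovered for nearly all genes, no count test was run. Library sums were 486449 to 556968 FPKM. Gene positions and promoters came from RefSeq (GRCm38.p6, the assembly mm10 is built on), and transcripts from GENCODE vM21. The alternatives changed the pseudocount (0.1, 0.01), the filter (none, 5 FPKM), the scaling (quantile, common sum, median of ratios, trimmed mean of M-values), the variance model (no trend, robust) and the sample weights, added a replicate block, or left out each library.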

Additional observations from a re-analysis of the deposited data

How the results depend on the processing

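Among the 10 genes the number past the threshold was 1 (Socs2), 0 without the filter on low values, 3 with array weights (Socs2, Socs7 and Stat5b) and 0 to 1 when each library was left out in turn; in the other settings it was 1. Socs2 kept its direction in all 18 alternatives and the threshold in 13, with log2 fold changes of 1.14 to 1.54 (limma, adjusted p 0.00120 to 0.119). Over all genes 295 were called, against 35 without the filter, 191 with a common sum, 3181 with array weights, 167 with the replicate block, and 31 to 370 leaving out 1 library. In the pathway lists 7 were called, against 3 without the filter, 4 with a common sum, 34 with array weights, 5 with the replicate block, and 1 to 8 leaving out 1 library (1 when either WT replicate 2 or WT replicate 3 was dropped, 2 when KO replicate 2 was, and 4 when KO replicate 3 was). Fstl1 was −2.79 without the filter too, at an adjusted p of 0.0606 (limma), in a fit of all 19241 genes. Values near 0 changed sign: Socs3 was −0.014 with quantile normalization, and with array weights Socs3 was −0.14, Ghr −0.049, Ctf1 −0.057 and Jak2 −0.064. Leaving out each library, Socs3 ran from −0.072 to 0.17, Socs6 from −0.071 to 0.23, Ctf1 from −0.034 to 0.31 and Jak2 from −0.051 to 0.23. The cause of these shifts was not tested, and the fits that leave out a library also hold fewer samples.

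The groups share replicate numbers, and deviations of same-numbered libraries correlated at 0.068, 0.043 and 0.043 over the tested genes. In these deviations each of the 3 WT libraries correlated best with the KO library of its own number. The titles do not say that animals were paired, so the main fit did not treat the libraries as pairs. With the replicate block Socs2 stayed past the threshold (limma, adjusted p 0.0174), while Stat5a (0.0632), Il15 (0.0797) and Lep (0.0523) did not, and 167 genes were called in all.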
